A study of Mus musculus with 29 samples.

Results

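Adipokines are proteins that fat cells release into the blood or the surrounding tissue, and 8 genes that encode them were followed here in the brown adipose tissue (BAT) and gastrocnemius muscle (SkM) of mice under calorie restriction and treadmill training. The members were taken by gene symbol from the deposited table, which holds 24770 symbols, and all 8 were found: Lep, Adipoq, Retn, Cfd, Rbp4, Agt, Ptgds and Lcn2. The mice were male, wild-type C57BL/6J animals, 8 weeks old at the start and studied for 8 weeks. The control group ate freely and was not trained. The CR group (calorie restriction) had its food cut by 10% a week to a final 70% of free intake, the EX group ran on a treadmill in 5 sessions a week, and the CREX group (labelled CE for the combined treatment) received both. Tissue was taken 24 h after the last run, and the mice of all groups had been fasted for 6 h, so no fed level was measured.

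The libraries came from BAT (3 control, and 4 each of CR, EX and CREX) and from SkM (4 control, 3 CR, 4 EX and 3 CREX). Libraries held between 21047242 and 24919377 counts in BAT and between 23050918 and 23425284 in SkM, and 17006 to 18645 genes had a read. Levels are given as CPM, read counts scaled to library size by TMM within each tissue. The floor below which a gene is hardly measurable, 3 counts, stands at 0.12 to 0.143 CPM of the library totals before TMM scaling. Both tissues are mixtures of cells, so fewer cells of a type and less RNA per cell cannot be told apart. Ucp1, the uncoupling protein that defines brown fat, stood between 1373 and 4750 CPM in the BAT libraries and between 0 and 0.138 CPM in SkM, whereas the 10 markers of muscle fibres, led by Myh4, Acta1 and Atp2a1, summed to at least 128442 CPM in every SkM library. The BAT libraries also held muscle fibre RNA, with marker sums from 5.12 to 7387 CPM that varied widely within each group. They differed between groups as well, with medians of 62.1 CPM in control, 441 in CR, 2852 in EX and 1973 in CREX. Every CREX library (1176 CPM or more) lay above every control library (770 CPM or less).

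Leptin signals the size of the fat stores to the hypothalamus, and adiponectin, its abundant counterpart, raises insulin sensitivity in liver and muscle. Resistin is a small cysteine-rich hormone of mouse adipocytes. Cfd encodes adipsin (complement factor D), the serine protease that activates the alternative complement pathway, and Agt encodes angiotensinogen, the precursor that renin cleaves. The remaining 3 members belong to the lipocalin family of small carriers: Rbp4 transports retinol in plasma, Ptgds makes prostaglandin D and carries small lipids, and Lcn2 binds iron-loaded siderophores. White fat is the main source of leptin, while brown fat is better known for heat production than for hormone release.

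The 8 genes lie apart from each other and from other annotated genes. In GENCODE M21 (GRCm38) no annotated gene overlaps any of them: Lep spans chr6:29060220-29073877 on the plus strand, Adipoq chr16:23146536-23158028 (plus), Retn chr8:3655770-3660110 (plus), Cfd chr10:79890853-79892655 (plus), Rbp4 chr19:38116629-38125281 (minus), Agt chr8:124556534-124569706 (minus), Ptgds chr2:25466709-25470046 (minus) and Lcn2 chr2:32384633-32388252 (minus). The 250 bases upstream of the RefSeq start site (GRCm38.p6) are shown for leptin and for Agt and Ptgds, the members with the largest fitted differences between BAT of CR and control mice. They are written 5' to 3' on the strand of the gene, the windows being chr6:29059971-29060220 (plus) for Lep, chr8:124569707-124569956 (minus) for Agt and chr2:25469750-25469999 (minus) for Ptgds. Capitals mark matches to the motifs searched.
Lep: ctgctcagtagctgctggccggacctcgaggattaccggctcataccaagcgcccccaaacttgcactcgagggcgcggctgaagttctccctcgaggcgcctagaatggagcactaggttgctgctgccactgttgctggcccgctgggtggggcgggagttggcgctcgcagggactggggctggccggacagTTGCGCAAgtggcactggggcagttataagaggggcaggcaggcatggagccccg
Agt: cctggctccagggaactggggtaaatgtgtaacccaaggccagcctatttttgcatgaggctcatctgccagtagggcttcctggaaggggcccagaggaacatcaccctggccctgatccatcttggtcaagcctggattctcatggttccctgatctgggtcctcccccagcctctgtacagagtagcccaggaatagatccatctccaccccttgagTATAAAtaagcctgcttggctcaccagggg
Ptgds: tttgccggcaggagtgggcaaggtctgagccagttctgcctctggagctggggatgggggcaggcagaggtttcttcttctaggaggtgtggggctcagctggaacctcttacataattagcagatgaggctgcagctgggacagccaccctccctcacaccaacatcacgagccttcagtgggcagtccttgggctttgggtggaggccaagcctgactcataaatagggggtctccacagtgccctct
The Lep window holds the C/EBP palindrome TTGCGCAA at -55 to -48, letters found in 54 of 32851 promoter windows of that length (0.164%). The Agt window holds the TATA box letters TATAAA at -30 to -25, found in 12.4% of windows, and 1 of the windows of Rbp4 holds them too. Both strands of the 9 windows of the 8 members were searched. The looser C/EBP form TTGCNNAA, which also takes in the palindrome, was present in 3 of them (9.56% of all windows), and CACGTG (E-box, 6.02%), AGAACA (glucocorticoid receptor half-site, 16.1%), the full palindromic glucocorticoid element (0.387%), TAGGTCA (Rev-erb and ROR element, 2.23%) and TCACNCCAC (SREBP element, 1.05%) in 0. No searched motif was found in the Ptgds window.

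The members differed widely in level in BAT. Scaled by the length of their exons, Cfd (median 672 CPM per kb over 15 libraries, range 381 to 993) and Adipoq (539, 455 to 629) were the highest and overlapped in range. Rbp4 (51.2, 39.5 to 70.4) and Retn (29.9, 15.2 to 56.2) formed the next level and also overlapped, well below the lowest Adipoq value. Lep followed at a median of 1.37 CPM per kb (0.592 to 3.97), Agt at 0.967 (0.195 to 3.06) and Ptgds at 0.553 (0.0968 to 4.83), and these 3 could not be ordered by their ranges over all groups. Lcn2 had the lowest median, 0.159 CPM per kb (0.0315 to 0.378), with at most 24 counts in a library and a range that overlapped those of Agt and Ptgds. In control BAT alone Agt (0.240 to 0.370 CPM per kb) lay below Lep (1.02 to 3.97) and Ptgds (2.23 to 4.83). Those last ranges overlapped, and Lcn2 (0.0315 to 0.107) lay below Agt.

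**Figure D1:**
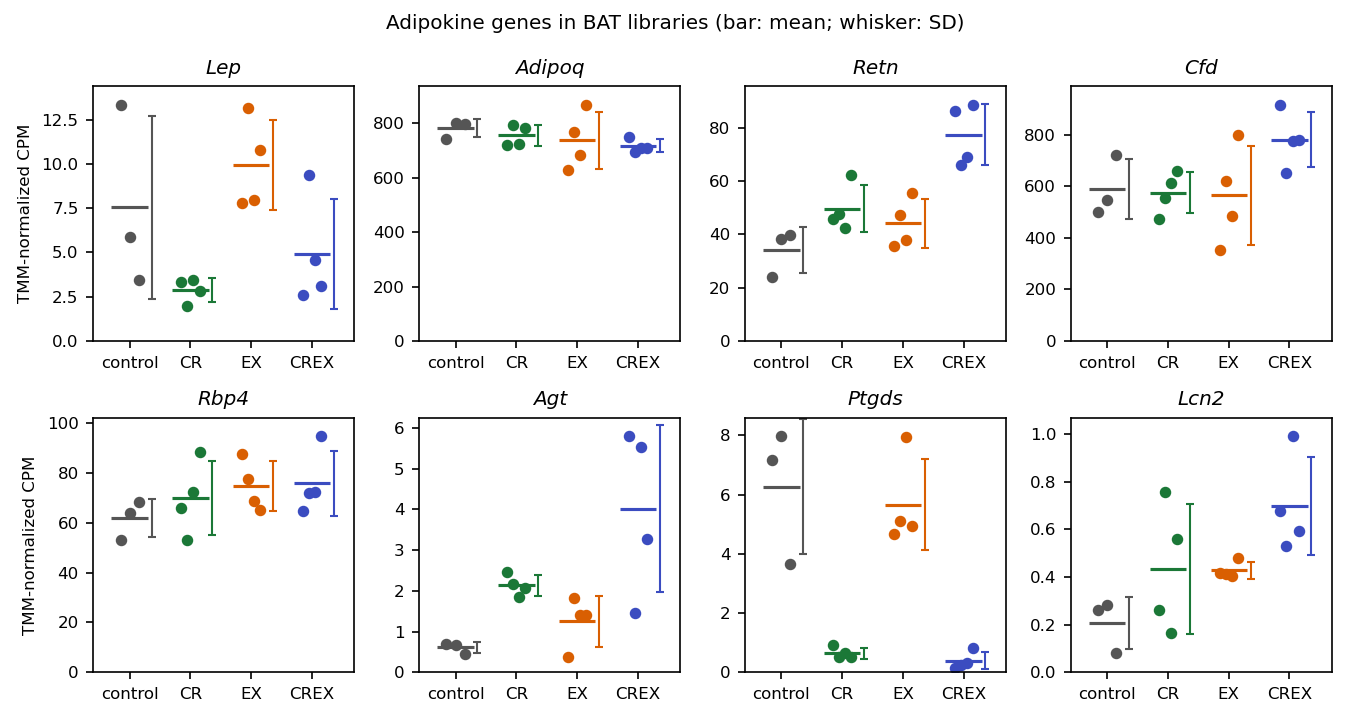
Levels of the 8 adipokine genes in BAT (y axis: TMM-normalized CPM, from 0) in the control (n = 3), CR, EX and CREX (n = 4 each) groups; points are libraries, bars means and whiskers SD. Ptgds lies between 3.67 and 7.97 CPM in control and EX libraries and below 1 CPM in CR and CREX libraries, Retn is highest in CREX, and Adipoq is nearly level.

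The first question was what CR did to these genes in BAT of untrained mice. Agt rose and Ptgds fell, and the other 5 members tested did not pass the threshold of an adjusted p under 0.05 with a change of more than 1.5-fold. These 2 of 7 tested members compare with 10.7% of the 13323 genes tested (1430 genes, 3.87% higher and 6.86% lower). The libraries of the groups did not overlap for 4 members (Lep, Retn, Agt and Ptgds), against 33.4% of all genes tested. The median log2 fold change of the 7 members was -0.04, beside 0.00 for all genes.

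Ptgds stood at 7.17, 7.97 and 3.67 CPM in the control libraries and at 0.911, 0.520, 0.659 and 0.516 CPM in the CR libraries. Every CR library was thus below every control library, on 11 to 21 counts against 89 to 198. The fitted level was 9.52-fold lower in CR (log2 fold change -3.25 ± 0.30 SE, edgeR adjusted p = 0.00017).

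Agt, the angiotensinogen gene, moved the opposite way from a low base. It measured 0.699, 0.684 and 0.454 CPM in control libraries (11 to 17 counts) and 2.47, 2.18, 1.85 and 2.06 CPM in CR libraries (45 to 57 counts), again without overlap. The fitted level was 3.48-fold higher (log2 fold change 1.80 ± 0.23, edgeR adjusted p = 0.000742).

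Lep was low and variable in control BAT, at 13.3, 5.88 and 3.42 CPM. The CR libraries held 3.34, 1.99, 3.42 and 2.79 CPM, all below the control libraries, but only just: 1 library of each group had 83 counts. The fitted change of -1.38 ± 0.47 (log2) did not pass (edgeR adjusted p = 0.084). It passed with DESeq2 on the same libraries (-1.38, adjusted p = 0.00213), with DESeq2 over all BAT groups (adjusted p = 0.00992) and with the muscle fibre score as a covariate (-1.49, edgeR adjusted p = 0.016). Without control replicate 3 it was -1.72 (edgeR adjusted p = 0.0194), and without control replicate 1, the highest library, it was -0.69 (edgeR adjusted p = 0.119). The group means were 7.54 ± 5.16 CPM in control (SD, n = 3) and 2.89 ± 0.661 CPM in CR (n = 4).

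Retn stood at 24, 38.2 and 39.7 CPM in control libraries and at 46.0, 47.5, 42.6 and 62.5 CPM in CR libraries. The groups did not overlap, but the log2 fold change of 0.54 ± 0.21 missed the threshold (edgeR adjusted p = 0.111). The abundant members showed small fitted differences with narrow errors. Adipoq averaged 782 ± 32.9 CPM in control and 756 ± 38.5 in CR (log2 fold change -0.05 ± 0.07, edgeR adjusted p = 0.631), and Cfd averaged 589 ± 116 and 575 ± 80.7 CPM (-0.04 ± 0.15, edgeR adjusted p = 0.893). Rbp4 averaged 61.7 ± 7.72 and 69.9 ± 14.7 CPM (0.18 ± 0.16, edgeR adjusted p = 0.472). Lcn2, with 2 to 16 counts a library, was below the filter on low counts and was not tested.

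Markers of other cells moved with CR in the same libraries, and their part in these results was not tested except for muscle fibres, whose score as a covariate gave 1.82 for Agt and -3.32 for Ptgds (log2, both still called). The 10 fibroblast and preadipocyte markers, led by Gsn, Dcn and Col1a1, summed to 625 to 714 CPM in CR and 761 to 854 CPM in control, with 5 of 10 lower by the test. The 8 Schwann cell markers summed to 69.6 to 103 CPM in CR and 113 to 141 CPM in control, with 1 of 7 tested lower. Among the 3 most abundant of them S100b differed most, averaging 17.9 CPM in CR and 48.1 in control. Mbp averaged 20.9 and 31.3 CPM and Pmp22 31.6 and 34.6 CPM. Ptgds is known outside fat from such stromal and glial cells, and these values stand beside its fall. Other sums were also lower in CR without overlap. Brown adipocyte sums were 4671 to 5475 CPM in CR and 6832 to 7923 CPM in control. Most of that difference lay in Ucp1, which averaged 2101 CPM in CR and 4264 in control. Cidea averaged 1531 and 1572 CPM and Cox8b 722 and 831 CPM. Macrophage sums were 46.4 to 74.2 and 83.1 to 88.7 CPM, and endothelial sums 350 to 446 and 476 to 531 CPM. The mesothelial sum was higher without overlap (6.77 to 9.11 against 2.43 to 3.94 CPM). It was almost all Lrrn4, which averaged 7.61 CPM in CR and 2.93 in control. Gpm6a averaged 0.251 and 0.195 CPM, and Msln was 0 in both groups. Of the 9 markers in that sum, 4 were at 0 in every CR library and 3 in every control library. Of all genes tested, 3.87% were called higher and 6.86% lower. For the remaining lists the calls were 1 of 10 lower for adipocytes, 2 of 10 lower for brown adipocytes, 2 higher and 2 lower of 8 for white adipocytes, 1 of 1 higher for mesothelium, 2 of 10 lower for macrophages, 1 of 2 lower for B cells, 1 of 10 lower for endothelium, 1 of 4 higher for hepatocytes, 0 of 10 for muscle fibres and 0 of 1 for neutrophils. The adipocyte sum, led by Fabp4, Pnpla2 and Lpl, was 19662 to 21068 CPM in CR and 19050 to 20498 CPM in control. Hepatocytes express Agt, and their 10 markers summed to 75.5 CPM in CR replicate 3, to 2.66 to 3.26 CPM in the other CR libraries and to 2.09 to 7.39 CPM in control libraries, and their part in the Agt values was not tested.

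**Figure D2:**
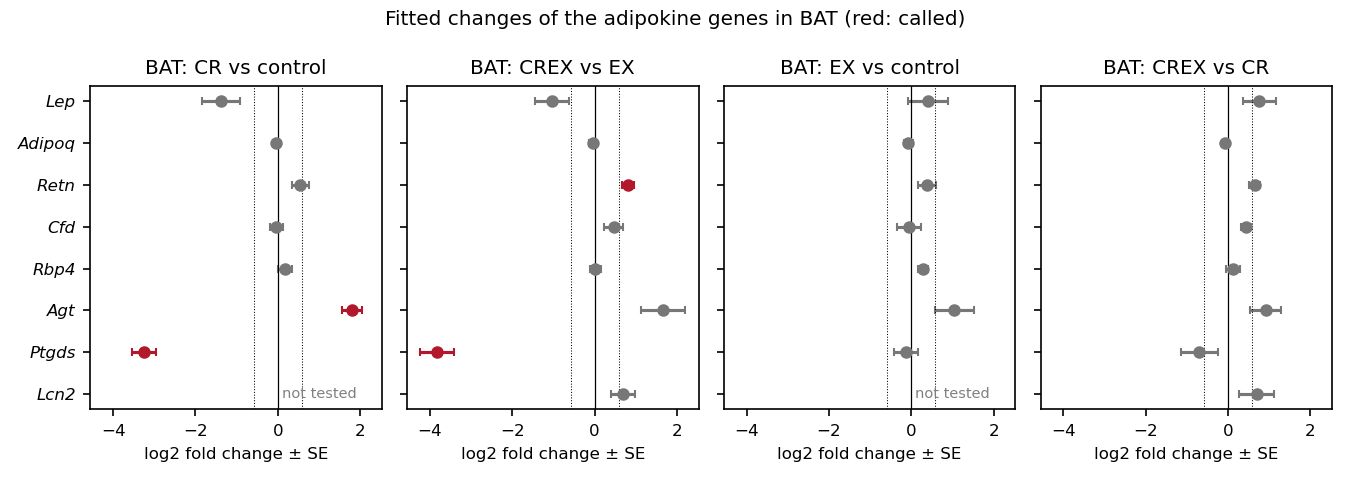
Fitted log2 fold changes (x axis, points ± SE) of the adipokine genes in the 4 BAT comparisons; dotted lines mark a 1.5-fold change and red points passed an adjusted p of 0.05 with it. Agt and Ptgds are red in CR vs control, Retn and Ptgds in CREX vs EX, and none in the comparisons of training.

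The same question was asked in trained mice by comparing CREX with EX. Ptgds fell again and Retn rose, 2 of 8 tested members beside 4.48% of the 13251 genes tested (594 genes, 1.86% higher and 2.63% lower). Libraries did not overlap for 3 members (Retn, Lcn2 and Ptgds), against 17.7% of all genes. The median log2 fold change of the members was 0.24, beside 0.00 for all genes. The comparison shares no library with that of CR and control.

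Ptgds stood at 4.66, 5.12, 7.94 and 4.95 CPM in EX libraries and at 0.160, 0.266, 0.330 and 0.83 CPM in CREX libraries. All CREX libraries (4 to 21 counts) were below all EX libraries (101 to 196 counts), and the fitted level was 14.1-fold lower (log2 fold change -3.82 ± 0.41, edgeR adjusted p = 0.00195). The fibroblast marker sums overlapped here, at 625 to 791 CPM in CREX and 734 to 1366 CPM in EX, with 2 of 10 lower. The Schwann cell sums did not, at 76.7 to 102 and 118 to 140 CPM, with 1 of 7 lower. S100b again differed most among the 3 most abundant, averaging 18.1 CPM in CREX and 41.9 in EX. Mbp averaged 22.0 and 31.7 CPM and Pmp22 31.9 and 39.6 CPM. Brown adipocyte sums were also lower without overlap (3619 to 5096 against 5892 to 6841 CPM). Most of that difference lay in Ucp1, at a mean of 1788 CPM in CREX and 3539 in EX. Cidea averaged 1363 and 1532 CPM and Cox8b 579 and 721 CPM. Mesothelial sums were higher without overlap (6.35 to 9.44 against 3.84 to 6.13 CPM). They were again mostly Lrrn4, which averaged 7.15 CPM in CREX and 3.97 in EX, with Msln at 0.0206 and 0.497 CPM.

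Retn, the resistin gene, measured 35.8, 47.2, 37.9 and 55.6 CPM in EX libraries and 86.3, 66.2, 69.0 and 88.7 CPM in CREX libraries. The lowest CREX library lay above the highest EX library, and the fitted rise was 1.75-fold (log2 fold change 0.81 ± 0.16, edgeR adjusted p = 0.0175). The adipocyte sums overlapped, at 17866 to 21245 CPM in CREX and 17254 to 19528 CPM in EX, with 0 of 10 markers called. The part of these cell markers in the Ptgds and Retn values was not tested.

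Agt and Lep repeated the direction they had in untrained mice without passing the threshold. Agt measured 0.369, 1.83, 1.42 and 1.40 CPM in EX libraries and 5.79, 1.46, 5.53 and 3.28 CPM in CREX libraries, so that CREX replicate 2 lay among the EX libraries. Its log2 fold change was 1.67 ± 0.53 (edgeR adjusted p = 0.097). The hepatocyte markers summed to 2.7 to 46.0 CPM in CREX libraries and 2.35 to 69.4 CPM in EX libraries, and their part in the Agt values was not tested here either. Lep measured 7.80, 13.2, 7.98 and 10.8 CPM in EX libraries and 2.59, 9.36, 4.58 and 3.08 CPM in CREX libraries, with CREX replicate 2 again the one that overlapped. Its log2 fold change was -1.03 ± 0.41 (edgeR adjusted p = 0.168). Without that library Lep was called lower (-1.53, edgeR adjusted p = 0.0154) and Agt higher (1.95, edgeR adjusted p = 0.044), which brought the members called to 4. DESeq2 also called both, with adjusted p of 0.0362 for Lep and 0.00753 for Agt.

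Lcn2 stood at 0.416, 0.412, 0.405 and 0.481 CPM in EX libraries and at 0.679, 0.532, 0.991 and 0.592 CPM in CREX libraries. The groups did not overlap on 9 to 11 counts against 12 to 24, and the log2 fold change of 0.69 ± 0.29 did not pass (edgeR adjusted p = 0.162). Cfd averaged 564 ± 191 CPM in EX and 780 ± 108 CPM in CREX (0.46 ± 0.24, edgeR adjusted p = 0.27). Adipoq averaged 737 ± 104 and 717 ± 23.9 CPM (-0.05 ± 0.10, edgeR adjusted p = 0.811), and Rbp4 averaged 74.6 ± 9.94 and 75.8 ± 13.0 CPM (0.02 ± 0.13, edgeR adjusted p = 0.951). The sign of the last of these differences changed with the scaling or with a covariate for muscle fibre RNA, whose markers summed to 1176 to 7387 CPM in CREX and 8.23 to 4344 CPM in EX, and the covariate also turned the sign of Adipoq.

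Training by itself moved no member past the threshold in BAT. Between EX and control, 0 of 7 tested members were called by edgeR and 0 by DESeq2, beside 0 of 13407 genes (0%, smallest adjusted p = 0.109, 972 genes at an unadjusted p under 0.05). Only Lcn2, which was not tested, had all EX libraries (0.405 to 0.481 CPM) above all control libraries (0.0825 to 0.282 CPM). Such separation in either direction held for 8.1% of all genes. Rbp4 alone of the members had an unadjusted p under 0.05, and its fitted difference was 0.28 ± 0.12 on the log2 scale (edgeR adjusted p = 0.672). Agt was 1.25 ± 0.622 CPM in EX and 0.612 ± 0.138 CPM in control (log2 fold change 1.04 ± 0.47, edgeR adjusted p = 0.688), and EX replicate 1, with 8 counts, was below all control libraries. Lep was 9.93 ± 2.55 CPM in EX (0.41 ± 0.48, edgeR adjusted p = 0.854).

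In calorie-restricted mice, CREX against CR, edgeR called 0 of 8 members, beside 1 of 13112 genes (0.00763%), and DESeq2 called 1, Retn. Retn was higher in every CREX library (66.2 to 88.7 CPM) than in every CR library (42.6 to 62.5 CPM), with a log2 fold change of 0.65 ± 0.14 whose edgeR adjusted p was 0.322 and whose DESeq2 adjusted p was 0.00521. Non-overlap of this kind held for 5.15% of all genes. The log2 fold change was 0.44 ± 0.12 for Cfd (edgeR adjusted p = 0.45) and 0.91 ± 0.37 for Agt (edgeR adjusted p = 0.641), each with an unadjusted p under 0.05 and overlapping libraries. Muscle fibre marker sums were 1176 to 7387 CPM in CREX and 24.5 to 1652 CPM in CR. With that score as a covariate the log2 fold changes were 0.63 for Retn, 0.28 for Cfd and 0.95 for Agt. The edgeR unadjusted p was then 0.0103, 0.0823 and 0.122. The interaction of CR and EX, which asks whether CR acted differently in trained mice, was called for 0 of 8 members by edgeR and by DESeq2, beside 0 of 13922 genes (0%, 800 at an unadjusted p under 0.05). No member had an unadjusted p under 0.05 there. The interaction estimates were 0.50 ± 0.31 for Cfd (edgeR adjusted p = 0.893) and -0.56 ± 0.56 for Ptgds (edgeR adjusted p = 0.928) on the log2 scale.

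Within groups the members did not vary as 1 block in BAT. Over the 15 libraries, after each group's mean was removed, Pearson's r was 0.88 between Adipoq and Cfd, 0.75 between Adipoq and Retn and 0.75 between Retn and Cfd, whereas Lep had r between -0.50 and 0.17 with the other members. These values describe libraries that share depth, scaling and tissue composition. The genes most like each member across the same libraries, among 13921 candidates, were Cav2 (r = 0.93), Pidd1 and Zfp781 for Lep, Mcfd2 (0.81), Robo4 and Eed for Adipoq, Kcnk2 (0.92), Abhd5 and Npl for Retn, and Gm454 (0.83), Fancc and Ddost for Cfd. They were Zfp438 (0.84), Tomm70a and Med24 for Rbp4, Zdhhc21 (0.90), Mgst3 and Wnt2b for Agt, and Nrbp1 (0.87), Gm28643 and Hs3st3b1 for Lcn2. Ptgds had BC034090 (0.97), Sipa1l1 and Smoc2, the last of which is also on the fibroblast marker list and averaged 10.7 CPM in CR and 25.2 CPM in control. These are the largest of many correlations over few libraries, which can be high for unrelated genes, and they were not tested. Within groups r was 0.90 for Lep and Cav2, 0.86 for Adipoq and Mcfd2, 0.70 for Retn and Kcnk2 and 0.74 for Cfd and Gm454. It was 0.87 for Rbp4 and Zfp438, 0.76 for Agt and Zdhhc21, 0.70 for Ptgds and BC034090 and 0.78 for Lcn2 and Nrbp1.

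**Figure D3:**
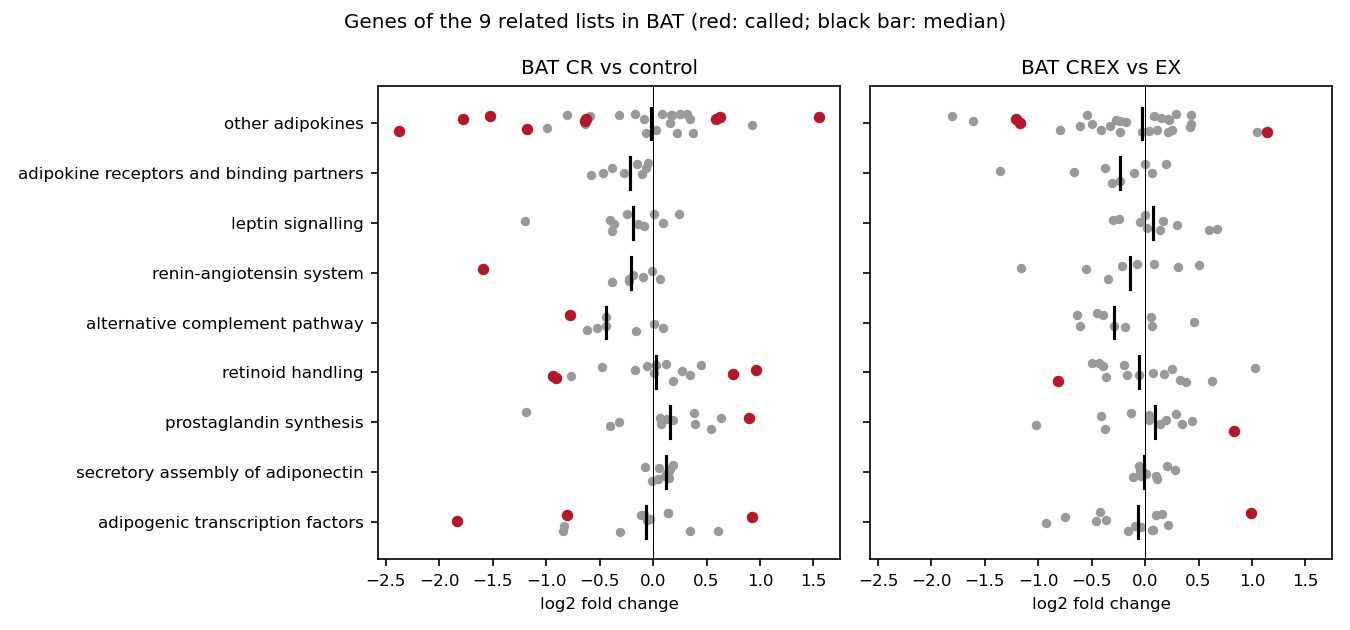
Log2 fold changes (x axis) of the tested genes of 9 related lists in BAT, CR vs control and CREX vs EX; each point is a gene, red passed the test and black bars are list medians. Calls are scattered in both directions, with 9 of 28 other adipokines called in CR vs control and 0 receptors in either comparison. Of all genes tested, 10.7% were called in CR vs control and 4.48% in CREX vs EX.

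Other adipokines of BAT moved in both directions under CR. Of 28 tested, 3 were higher and 6 lower, with a median log2 fold change of -0.02. Of all genes tested, 10.7% were called (3.87% higher and 6.86% lower), a share to set beside each list below as well. Nampt, a cytokine and NAD-synthesizing enzyme, averaged 334 CPM in CR and 221 in control (0.59 ± 0.10, edgeR adjusted p = 0.0025). C1qtnf4 rose from 1.64 to 4.81 CPM and C1qtnf9, an adiponectin paralog, from 20.2 to 31.2 CPM. Cxcl14, a chemokine, fell from 11 to 3.82 CPM (-1.52 ± 0.14, edgeR adjusted p = 0.000112), Fbn1, whose product carries the hormone asprosin, from 11.1 to 3.22 CPM, and C1qtnf6 from 1.98 to 0.868 CPM. Rarres2 (chemerin) fell from 19.3 to 12.5 CPM and Hp (haptoglobin) from 409 to 263 CPM. Cxcl14, C1qtnf4, C1qtnf6 and Fbn1 were called in all 7 fits that left out a library, whereas Nampt was lost without CR replicate 1 or 3 or control replicate 1 or 2, Rarres2 without CR replicate 3 or 4 or control replicate 1, C1qtnf9 without CR replicate 2 or control replicate 2 or 3, and Hp without control replicate 1 or 3.

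Between CREX and EX, 1 of 29 was higher (C1qtnf4, 4.93 against 2.23 CPM) and 2 were lower (Cxcl14, 5.35 against 12 CPM, and C1qtnf2, 0.466 against 1.07 CPM), with a median of -0.03. Of all genes tested there, 4.48% were called (1.86% higher and 2.63% lower). Cxcl14 was called in all 8 fits that left out a library, C1qtnf4 in the 3 without CREX replicate 3, EX replicate 1 or EX replicate 4, and C1qtnf2 in 0.

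Receptors and downstream genes of the members showed few calls in BAT. Of the receptors and binding partners, 0 of 8 were called in CR vs control, though all 8 had a fitted value below 0 (median -0.21, beside 0.00 for all genes). In CREX vs EX 0 of 9 were called (median -0.23). Agtr1a, the angiotensin receptor, averaged 3.77 and 5.22 CPM in CR and control, Slc22a17, a receptor of lipocalin 2, 4.26 and 5.17 CPM, and Adipor2, an adiponectin receptor, 507 and 562 CPM. A receptor was called in the fits without CR replicate 1 and without CR replicate 2 (1 each). Leptin signalling had 0 of 10 called in both comparisons (medians -0.19 and 0.08). Stat5b, a transcription factor of that pathway, averaged 25.8 CPM in CR and 34.1 in control (-0.40 ± 0.09, edgeR adjusted p = 0.0109), below the 1.5-fold threshold. The secretory assembly genes of adiponectin had 0 of 10 called in both (medians 0.12 and -0.01), with P4hb, the disulfide isomerase, at 55.9 CPM in CR and 50.5 CPM in control.

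In the renin-angiotensin list 1 of 8 was lower in CR, Cma1, a mast cell chymase (0.248 against 0.768 CPM), with a median of -0.20. Its CR mean is not far above the level of 3 counts, 0.12 to 0.143 CPM. In CREX vs EX 0 of 8 were called (median -0.15), and 1 without CREX replicate 2 or without EX replicate 4. In the alternative complement list 1 of 8 was lower in CR, Cfb, the substrate of adipsin (3.00 against 5.16 CPM), with a median of -0.44. That count was 0 without control replicate 2 and 3 without control replicate 3 or CR replicate 2. In CREX vs EX 0 of 9 were called (median -0.29), and 1 without CREX replicate 1.

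In the retinoid list 2 of 15 rose in CR and 2 fell (median 0.03). Aldh1a1 and Aldh1a7, aldehyde dehydrogenases, rose from 4.13 to 8.0 CPM and from 61.4 to 103 CPM, and Dhrs3, a retinaldehyde reductase, and Rara, a retinoic acid receptor, fell from 67.6 to 35.2 CPM and from 5.37 to 2.85 CPM. All 4 were called in all 7 fits that left out a library. In CREX vs EX 1 of 15 was called (median -0.06), Rara, at 2.35 against 4.12 CPM, and 0 without CREX replicate 1 or 2 or EX replicate 2 or 3.

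Around Ptgds, the prostaglandin list had 1 of 12 called higher in each comparison, in both cases Hpgd, the enzyme that inactivates prostaglandins. Hpgd averaged 8.64 CPM in CR and 4.64 in control (0.90 ± 0.16, edgeR adjusted p = 0.0034), and 9.22 CPM in CREX and 5.17 in EX (0.83 ± 0.16, edgeR adjusted p = 0.0145). The list medians were 0.16 and 0.09. The count in CR was 2 without CR replicate 1 or control replicate 3. Among adipogenic transcription factors 1 of 14 rose in CR, Klf15 (63.7 against 33.6 CPM), and 2 fell, Klf4 (7.88 against 28.1 CPM) and Ebf2 (28 against 49.1 CPM), with a median of -0.07 and 5 calls without CR replicate 3. In CREX vs EX 1 of 14 was called, Cebpd, higher at 7.53 against 3.77 CPM (median -0.07). That call was present in 1 of the 8 fits that left out a library, the fit without CREX replicate 2.

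SkM served as the second tissue. In control mice 6 of 7 tested members were higher in BAT and Agt was higher in SkM, where 29.8% and 30.2% of 13797 genes were called in those directions (60% in all). Adipoq differed by 9.66 ± 0.68 on the log2 scale (edgeR adjusted p = 2.24e-05), Cfd by 6.40 ± 0.88 (0.001), Rbp4 by 6.34 ± 0.17 (3.69e-11) and Retn by 5.53 ± 0.50 (5.07e-05). Lep had at most 2 counts and Ptgds at most 1 in a control SkM library. Their BAT control means were 58.0-fold and 48.2-fold above 3 counts per SkM library, 0.13 CPM. That floor was taken on library totals without TMM, and the BAT means were scaled within BAT, so these are rough lower bounds. Without BAT control replicate 1, the highest library, the rough bound for Lep was 35.8-fold. Agt was 21.1-fold lower in BAT than in SkM (log2 difference -4.40 ± 0.17, edgeR adjusted p = 4.55e-10). Its level in SkM was steady, from 8.14 to 15.4 CPM over the 14 libraries.

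**Figure D4:**
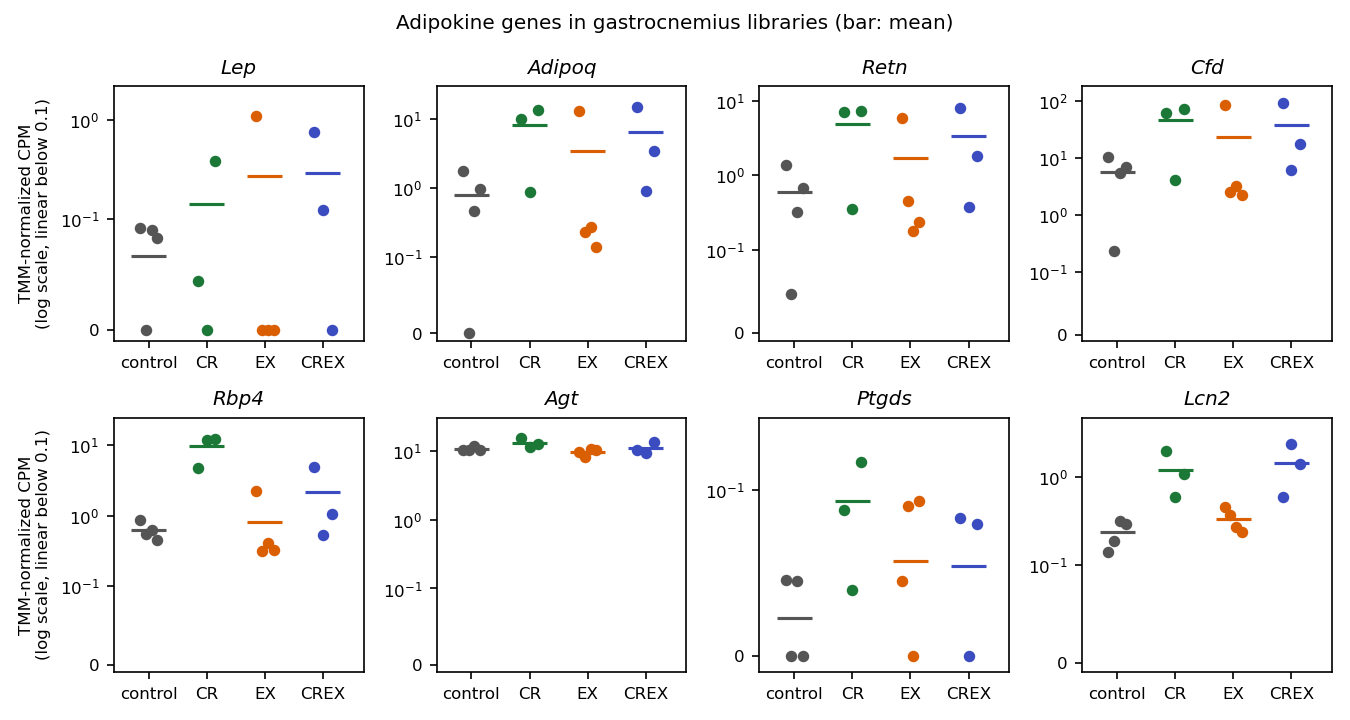
Levels of the 8 adipokine genes in gastrocnemius (y axis: TMM-normalized CPM, log scale that is linear below 0.1) in the control (n = 4), CR (n = 3), EX (n = 4) and CREX (n = 3) groups; points are libraries and bars means. Rbp4 is above 4 CPM in all CR libraries and below 1 CPM in all control libraries, Agt is nearly level, and Adipoq, Retn and Cfd are high in the same few libraries of CR, EX and CREX.

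In SkM, CR was followed by higher Rbp4 and Lcn2. These 2 of 6 tested members compare with 9.6% of the 13173 genes tested (1264 genes, 4.27% higher and 5.32% lower), and both were free of overlap between groups, as 27.5% of all genes were. Lep and Ptgds were below the filter on low counts. Rbp4 measured 4.69, 11.7 and 12.4 CPM in CR libraries and 0.874, 0.558, 0.633 and 0.457 CPM in control libraries. The fitted level was 15.2-fold higher (log2 fold change 3.93 ± 0.35, edgeR adjusted p = 0.0002).

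Liver is the main source of plasma Rbp4, and markers of hepatocytes moved with it. The 10 markers summed to 43.4, 244 and 242 CPM in the CR libraries and to 0.322 to 6.98 CPM in control libraries, and all 8 that could be tested were called higher (median log2 fold change 5.87). Alb stood at 27.9, 153 and 144 CPM in CR and at 3.21 CPM or below in control. None of the 10 markers was at 0 in a CR library. Ttr, the plasma partner of Rbp4, rose from 0.103 to 11.1 CPM. With the hepatocyte score as a covariate, a choice made after these values had been seen, the Rbp4 difference was 2.07 (log2, edgeR adjusted p = 0.0115). That score was 1.64 to 3.74 in CR and 0.0435 to 0.610 in control libraries. Without overlap between the groups, this fit cannot separate liver RNA from the diet.

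Lcn2 measured 1.93, 0.593 and 1.07 CPM in CR libraries (15 to 44 counts) and 0.138, 0.186, 0.317 and 0.291 CPM in control libraries of SkM (3 to 7 counts, at or near the floor). The fitted level was 5.00-fold higher (log2 fold change 2.32 ± 0.47, edgeR adjusted p = 0.00981). Neutrophils carry Lcn2 in their granules, and their 9 markers summed to 0.0382 to 0.237 CPM in CR and 0.208 to 0.814 CPM in control. Of these markers 5 were at 0 in every CR library and 4 in every control library. With the hepatocyte score as a covariate the difference was 3.82 (log2, edgeR adjusted p = 0.00871), in a fit that cannot separate liver RNA from the diet.

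Adipoq, Retn and Cfd were high in the same SkM libraries, which belonged to 3 of the groups. Adipoq measured 9.92, 0.869 and 13.4 CPM in CR, 14.8, 0.903 and 3.41 CPM in CREX, 12.8, 0.226, 0.271 and 0.140 CPM in EX, and 1.75, 0, 0.452 and 0.956 CPM in control libraries. Over the 14 libraries, which share dissection and depth, Pearson's r was 0.98 between Adipoq and Cfd and 0.97 between Adipoq and Retn. Plin1, the lipid droplet protein of adipocytes, was also high in the libraries with high Adipoq: 2.19 and 3.44 CPM in CR replicates 1 and 3, 4.33 CPM in CREX replicate 1 and 4.34 CPM in EX replicate 1, against at most 0.476 CPM in the other 10. The summed adipocyte list was led in SkM by Lpl, Pnpla2 and Plin4, which muscle fibres also express, and stood at 1976 to 2220 CPM in CR and 2200 to 2377 CPM in control. The adipocyte score used as a covariate is not that sum but the mean of log2(CPM + 1) over the 10 markers. Scaled over all SkM libraries, it was 6.53, 6.04 and 6.71 in CR libraries and 6.11 to 6.32 in control libraries. With the score of each library as a covariate, the log2 fold changes in CR vs control were 1.53 for Adipoq, 1.0 for Retn and 1.075 for Cfd (edgeR adjusted p = 0.161, 0.38 and 0.335). Without the covariate they were 3.34 ± 0.99 for Adipoq, 2.99 ± 0.99 for Retn and 3.01 ± 1.01 for Cfd (edgeR adjusted p = 0.0654, 0.0898 and 0.0943). Without CR replicate 2, the CR library with the lowest Plin1, all 3 were called and the members called numbered 5. Agt averaged 13.1 ± 2.11 CPM in CR and 10.8 ± 0.665 CPM in control SkM (0.28 ± 0.13, edgeR adjusted p = 0.177).

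Between CREX and EX in SkM only Lcn2 was called, 1 of 6 tested members beside 8.87% of the 13112 genes tested (3.7% higher and 5.17% lower). Its libraries did not overlap, as was true of 28.3% of all genes. It measured 0.582, 2.34 and 1.39 CPM in CREX libraries (14 to 57 counts) and 0.452, 0.362, 0.271 and 0.233 CPM in EX libraries (5 to 10 counts). The log2 fold change was 2.10 ± 0.48 (edgeR adjusted p = 0.0229). The call held without CREX replicate 1 and was lost in each of the 6 fits that left out another library, CREX replicates 2 and 3 and EX replicates 1 to 4 (adjusted p from 0.0514 to 0.0953). Rbp4 averaged 2.16 ± 2.36 CPM in CREX and 0.828 ± 0.957 CPM in EX (1.37 ± 0.97, edgeR adjusted p = 0.369), its highest value, 4.87 CPM, being in CREX replicate 1, whose hepatocyte sum was 51.0 CPM. Without that library the difference was -0.043. The log2 fold changes of Adipoq (0.92 ± 1.68, edgeR adjusted p = 0.745) and Agt (0.19 ± 0.15, edgeR adjusted p = 0.409) did not pass.

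Of all SkM genes tested, 9.6% were called in CR vs control and 8.87% in CREX vs EX. The related lists of SkM had calls in both directions under CR. Of 30 other adipokines 2 were higher, C1qtnf4 (19.9 against 7.61 CPM in control) and Hp (4.52 against 0.793 CPM), and 7 were lower: Fbn1 (6.31 against 22.9 CPM), Pltp, Metrnl, C1qtnf6, C1qtnf5, Dpp4 and Vegfa. Besides Ttr among 9 receptors and partners, Cish (27.6 against 4.49 CPM) rose and Irs1 fell of 11 leptin signalling genes, Cma1 fell of 9 renin-angiotensin genes, Cfb rose of 9 complement genes, Aldh1a7 rose and Rara (5.85 against 14.7 CPM) fell of 16 retinoid genes, and Pla2g16 fell of 12 prostaglandin genes. Klf15 and Cebpd rose among 15 transcription factors, and 0 of 10 assembly genes were called. Metrnl, C1qtnf4, C1qtnf6, Fbn1, Hp, Pltp, Ttr, Rara, Pla2g16 and Klf15 were called in all 7 fits without a library, and the other 9 genes in 0 to 4 of them. With the hepatocyte score as a covariate Metrnl, C1qtnf6, Hp and Pla2g16 were not called, in a fit that cannot separate liver RNA from the diet. Hp was also lost without the filter on low counts, with the replicate block and in both fits over all SkM groups. Between CREX and EX, C1qtnf4 rose (22.2 against 7.94 CPM) and Apln, Metrnl, C1qtnf5, C1qtnf6, Dpp4 and Fbn1 fell of 30 other adipokines, Masp1 fell of 9 complement genes, Rara of 16 retinoid genes and Pla2g16 of 11 prostaglandin genes. Klf15, Cebpd and Nr3c1 rose and Zfp423 and Mlxipl fell of 15 transcription factors, and 0 were called of 8 receptors, 11 leptin signalling, 7 renin-angiotensin and 10 assembly genes. C1qtnf4, Pla2g16 and Klf15 were called in all 7 fits without a library, and each of the other calls was lost without CREX replicate 2.

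Training called no member in SkM. In EX vs control 0 of 4 tested members passed with edgeR and 0 with DESeq2 (0.0775% of 12907 genes; 0 members at an unadjusted p under 0.05), and in CREX vs CR 0 of 6 with edgeR and 0 with DESeq2 (0% of 13068 genes; 1 member, Rbp4, at an unadjusted p under 0.05). Without CREX replicate 1 the latter count was 1. The interaction was called for 0 of 6 members with both tools (0% of 13610 genes; 1 member at an unadjusted p under 0.05).

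The response to CR was then compared between the tissues in 1 fit. It differed for 3 of 8 members, beside 7.58% of 14369 genes (3.93% higher and 3.65% lower in BAT than in SkM). The CR response of Rbp4 was lower in BAT than in SkM, by -3.74 ± 0.45 on the log2 scale (edgeR adjusted p = 0.000514). That of Agt was higher in BAT than in SkM (1.52 ± 0.25, edgeR adjusted p = 0.00175). Rbp4 rose in SkM CR libraries whose hepatocyte marker sums were 43.4 to 244 CPM, against 0.322 to 6.98 CPM in SkM control. The part of these markers in the tissue difference was not tested. Ptgds differed by -5.11 ± 1.10 (edgeR adjusted p = 0.0104), but SkM libraries held only 0 to 4 counts of it, and without SkM CR replicate 3 the difference was -4.53 (edgeR adjusted p = 0.0836). Without SkM CR replicate 2 the members called numbered 5. For CREX against EX 0 of 8 members differed between tissues with edgeR and 1 with DESeq2 (5.58% of 14410 genes; 3 members at an unadjusted p under 0.05). That count was 1 without BAT CREX replicate 2, without SkM CREX replicate 1 and without SkM EX replicate 1.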

How the data were processed

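RNA-seq of 29 libraries from BAT and SkM was used, grouped by the sample records. Reads were trimmed and mapped by the authors to mm10 (STAR 2.7.10a) and quantified per gene symbol by RSEM; the deposited table gives its expected counts, not normalized. The submitters' processing notes name RSEM 1.2.28, the paper's methods another version, and the annotation used for counting is not given in the sources used here. Of the 24770 symbols, 2 are duplicated and 27 had been turned into dates; none is named. Expected counts were rounded. Totals and the level of 3 counts, which covers counting error only, are given in the report.

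With R 4.3.3, each comparison was fitted on its own 2 groups with edgeR 4.0.16 (robust quasi-likelihood, TMM, filterByExpr). Calls required a Benjamini-Hochberg adjusted p under 0.05 over all genes tested and a fold change above 1.5, and for interactions and differences between tissues the adjusted p alone. BAT and SkM were compared in 1 fit with TMM over both. Nothing in the sources says that same-numbered libraries share a mouse or batch, and p-values measure the spread between these libraries. Fits were tested on simulated data. Alternatives were DESeq2 1.42.0, RLE or total scaling, other filters, all groups in 1 fit, a replicate block, other thresholds, marker scores as covariates and each library left out. A marker score is the mean of log2(CPM + 1) over the markers of a list. No duplicate libraries were found.

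The members and gene lists were chosen with earlier results of these data known. Genes named are the members, called genes of the lists, otherwise up to 3 of a list by smallest p, the 3 most abundant markers of a list, and the 3 genes most correlated with each member; markers named beyond these (Ucp1, Plin1, Alb) and Smoc2 were chosen after their values were seen. A called gene of the list of other adipokines is counted but not reported here by name. Promoter sequences and motif windows come from RefSeq tables of GRCm38.p6, in which all 8 members matched, and exon lengths from GENCODE M21.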

Additional observations from a re-analysis of the deposited data

Results flagged for a closer look

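Groups of 4 libraries were screened for a library far from the others. Of 40 such groups, 9 had one by Dixon's criterion, where chance flags about 1 in 20. SkM EX replicate 1 accounted for 5 of them, as the highest library for Adipoq (12.8 CPM), Cfd (83.8 CPM), Retn (5.88 CPM), Lep (1.09 CPM, the others at 0) and Rbp4 (2.26 CPM). Plin1 was 4.34 CPM in that library and at most 0.14 CPM in the other EX libraries of SkM. Lep in SkM control was lowest in replicate 2 (0 CPM, the others at 0.0832 to 0.092 CPM, 2 counts each), and Agt in SkM control was highest in replicate 3 (11.8 CPM against at most 10.5). In BAT EX, Ptgds was highest in replicate 3 (7.94 CPM against at most 5.12) and Lcn2 in replicate 4 (0.481 CPM against at most 0.416).

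The response to CR differed between BAT and SkM for Rbp4 (-3.74, log2), Agt (1.52) and Ptgds (-5.11), each by the edgeR test of the difference itself. For Rbp4, the SkM CR libraries also held hepatocyte marker sums of 43.4 to 244 CPM, whose part was not tested. For Ptgds, SkM libraries held 0 to 4 counts, and without SkM CR replicate 3 the difference was not called (edgeR adjusted p = 0.0836).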

How the results depend on the processing

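The calls of Agt and Ptgds in BAT of CR mice, of Ptgds and Retn in BAT of CREX mice and of Rbp4 and Lcn2 in SkM of CR mice were present under each alternative in which they could be tested and in every fit without 1 library. The number of members called moved as follows, with causes not tested unless stated. Requiring 10 counts in every library removed low members from the tests and left 1 in BAT CREX vs EX, 1 in SkM CR vs control, 0 in SkM CREX vs EX and 2 in BAT vs SkM. DESeq2, on the same libraries or over all BAT groups, and the muscle fibre covariate called 3 in BAT CR vs control, adding Lep. DESeq2 called 4 in BAT CREX vs EX, 1 in BAT CREX vs CR and 1 in the tissue difference of CREX vs EX. An unadjusted p gave 5 in BAT CREX vs EX, 2 in BAT CREX vs CR, 5 in SkM CR vs control and 1 in SkM CREX vs CR. The adipocyte score as a covariate gave 2 in SkM CREX vs EX, adding Rbp4 (1.57, edgeR adjusted p = 0.0195). One fit over all BAT groups called Agt in CREX vs EX (1.67, edgeR adjusted p = 0.0178). With the replicate block the counts were 2 in BAT CR vs control, 3 in BAT CREX vs EX (adding Lep), 1 in BAT CREX vs CR (Retn), 5 in SkM CR vs control and 0 in SkM CREX vs EX. The block also ended list calls of Rarres2 and Hp in BAT CR vs control, of C1qtnf2, C1qtnf4, Rara and Cebpd in BAT CREX vs EX, of Hp, Irs1 and Aldh1a7 in SkM CR vs control, and of Metrnl, C1qtnf5, Dpp4, Cebpd, Nr3c1 and Mlxipl in SkM CREX vs EX. Same-numbered libraries correlated by -0.302 to 0.146 on average and no comparison had every pair above 0.1, so the numbers were not taken to pair mice. Leaving out 1 library gave 2 to 3 in BAT CR vs control, 2 to 4 in BAT CREX vs EX, 2 to 5 in SkM CR vs control, 0 to 1 in SkM CREX vs EX, 0 to 1 in SkM CREX vs CR, 2 to 5 and 0 to 1 in the tissue differences of CR vs control and CREX vs EX. Signs turned only for uncalled values: in BAT CREX vs EX, Rbp4 was -0.032 with total scaling and -0.026 with the muscle fibre covariate, and Adipoq 0.0084 with that covariate; in SkM CREX vs EX, Adipoq was -0.59 with the hepatocyte covariate. Without 1 library, Cfd in BAT CR vs control ran from -0.14 to 0.14, Rbp4 in BAT CREX vs EX from -0.11 to 0.11, Adipoq there from -0.10 to 0.038, and in SkM CREX vs EX Adipoq from -0.63 to 4.87 and Rbp4 from -0.043 to 2.61. With all BAT groups in 1 fit, C1qtnf6 and Aldh1a1 in CR vs control were not called. Lcn2 in BAT and Lep and Ptgds in SkM were limited by counts, as was Lcn2 in SkM control (3 to 7 counts) and EX (5 to 10 counts).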
